A study of Mus musculus with 2 samples.

Results

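The lncRNAs Malat1, Neat1, Meg3, Rian, Kcnq1ot1, Airn, Snhg1, Snhg3, Snhg8 and Snhg12 were examined in hepatocytes from control and CCl4-injected mice. They were chosen by name as well-known nuclear, imprinted and small nucleolar RNA (snoRNA) host transcripts, and were found by pairing RefSeq identifiers with gene symbols. The 10 genes were represented by 15 of the 37072 annotated lncRNA transcripts, of which 3719 carried a RefSeq identifier and the rest were FANTOM3 cDNA clones. As deposited, the entries with a RefSeq identifier, called RefSeq lncRNAs below, also included small RNAs, pseudogenes and noncoding variants of protein-coding genes. Total RNA had been taken from primary hepatocytes of WT male C57BL/6J mice, with 1 library from mice given oil and 1 library from mice given CCl4, a solvent that injures hepatocytes once they metabolize it. A 20% solution of CCl4 in mineral oil was injected into the peritoneum at 2.5 ml CCl4 per kg, 2 times a week. The labels give 8 weeks of injection, whereas the methods give 4 weeks and mice aged 5 weeks. Hepatocytes were freed by pronase and collagenase perfusion and purified on a density gradient, and the number of mice behind a library is not stated.

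Levels are given as RPKM, the reads of a transcript divided by its length and by the size of the library. Values under 1 RPKM were listed as 0. Each condition had 1 library, so no difference below has a replicate check and no test of the conditions was possible. A transcript listed in both libraries was called higher or lower where the log2 ratio of CCl4 to oil, with 0.1 RPKM added to each value, was at least 1 or at most -1. Intervals in brackets are 95% counting intervals from recovered reads, without the added 0.1 RPKM. They cover counting error only. The library totals recovered from the annotated lncRNA and mRNA values were 57992570 reads for oil and 64655558 reads for CCl4. The ratios were not centred on 0, since the median mRNA ratio without the added 0.1 RPKM was 0.33 on the log2 scale, and with it the medians were 0.32 for mRNAs and 0.26 for annotated lncRNAs.

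LncRNAs are transcripts that act, where they have a function, without being translated into a long protein. Malat1 is stored in nuclear speckles beside splicing factors, and Neat1 is the scaffold around which paraspeckle proteins assemble. Meg3 and Rian are read from the maternal chromosome of the imprinted Dlk1-Dio3 cluster, while Airn and Kcnq1ot1 are read from the paternal chromosome and silence neighbouring genes in cis. Snhg genes carry snoRNAs in their introns. After splicing, the introns yield snoRNAs that guide the modification of other RNAs, and the joined exons are often short-lived.

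The starts of the Snhg genes and of Meg3 are shown because the 4 Snhg genes share a role and were all listed, and Meg3 was the only gene called. RefSeq promoter windows of GRCm38.p6, the assembly that UCSC names mm10, were found for 9 of the 10 genes. Neat1 was not among them. Each line gives 80 bases before the annotated start and 40 bases from it, 5′ to 3′ on the strand of the gene. Capitals mark matches on either strand, which may overlap, to the TATA element TATAAA, the CAAT element CCAAT, the GC element GGGCGG and the cyclic AMP response element TGACGTCA, and a pyrimidine tract, defined as C followed by C or T for at least 5 bases in all, beginning within 10 bases of the start. The stretches are chr19:8723407-8723526 on the plus strand for Snhg1, chr4:132353647-132353766 on the minus strand for Snhg3, chr3:123508297-123508416 on the minus strand for Snhg8, chr4:132308598-132308717 on the plus strand for Snhg12 and chr12:109540916-109541035 on the plus strand for Meg3 (its first annotated start).
Snhg1: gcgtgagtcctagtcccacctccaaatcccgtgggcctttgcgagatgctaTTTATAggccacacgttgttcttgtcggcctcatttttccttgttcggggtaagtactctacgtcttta
Snhg3: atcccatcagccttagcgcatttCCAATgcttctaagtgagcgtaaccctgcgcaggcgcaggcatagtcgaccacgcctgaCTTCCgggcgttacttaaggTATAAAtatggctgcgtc
Snhg8: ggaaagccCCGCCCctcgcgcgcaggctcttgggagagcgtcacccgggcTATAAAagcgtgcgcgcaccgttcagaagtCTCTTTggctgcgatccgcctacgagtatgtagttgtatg
Snhg12: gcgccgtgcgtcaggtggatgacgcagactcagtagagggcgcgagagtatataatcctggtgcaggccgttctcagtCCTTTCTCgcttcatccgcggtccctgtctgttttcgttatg
Meg3: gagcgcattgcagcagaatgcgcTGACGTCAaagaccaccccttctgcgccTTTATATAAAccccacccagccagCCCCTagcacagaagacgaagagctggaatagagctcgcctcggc
A pyrimidine tract of 5 bases was found for Snhg3, 6 bases for Snhg8 and 8 bases for Snhg12, while the run at Snhg1 had 4 bases and was not counted. Of all 32851 mouse promoter windows, 30.7% held such a tract. TATAAA was found in the windows of Snhg1, Snhg3 and Snhg8, each 300 bases long, against 13.6% of all windows, and in Snhg3 it lay after the annotated start. CCAAT was found for Snhg3 and Snhg8 (37.4% of all windows) and GGGCGG for Snhg1 and Snhg8 (35.7%). These matches were not confined to the Snhg genes. Rian held a tract of 6 bases, Airn held TATAAA and GGGCGG, and Kcnq1ot1 held CCAAT, while the Malat1 window held none of them. The first Meg3 window held the TATA and CAAT elements, a tract of 5 bases and the element TGACGTCA, which was found in 1.79% of all windows. It differed from the second annotated Meg3 start, where none of these were found. The 4 Snhg windows held 16 to 30 CpG dinucleotides, against 0 in Rian, 1 and 13 at the Meg3 starts, 3 in Airn, 9 in Kcnq1ot1 and 10 in Malat1. These matches are letters in a window, and no measurement of binding or initiation was part of the data.

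Of the 15 transcripts, 7 from 7 genes were listed in both libraries, 3 from 2 genes in the CCl4 library alone, 0 in the oil library alone and 5 in neither. Meg3 was called higher in CCl4, and no gene of the 10 was called lower. Over all annotated lncRNA transcripts listed in both libraries, 9.38% were called higher and 3.47% lower. The RefSeq lncRNAs gave 11.1% higher and 5.21% lower, and mRNAs gave 14.4% higher and 5.30% lower, so 1 call among 7 was near the background. The 7 log2 ratios ran from -0.78 to 1.01 with a median of 0.20, 4 above 0 and 3 below, beside a median of 0.26 over the 863 RefSeq lncRNAs. These directions depended on scaling. With the libraries matched on the median mRNA, the median of the 7 was -0.13, Meg3 was not called and Neat1 was called lower. Over all annotated lncRNAs 321 were then called higher and 547 lower, against 714 and 264 as deposited.

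**Figure D1:**
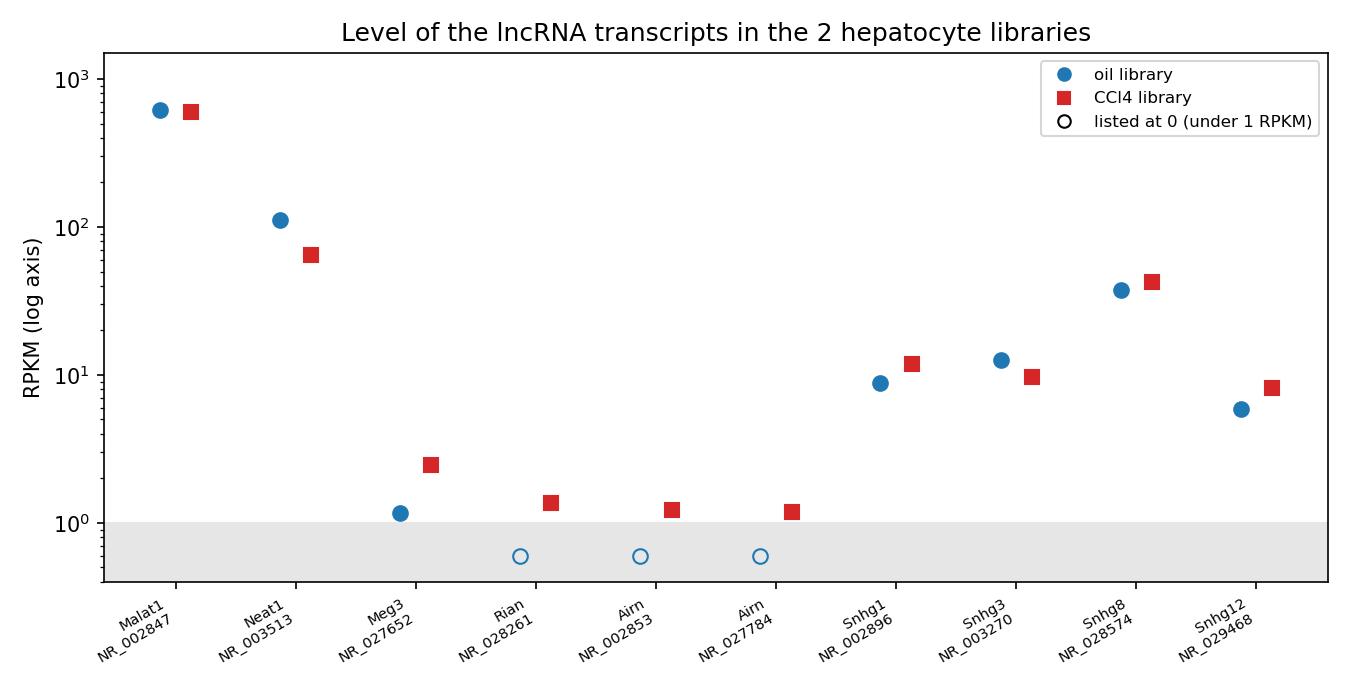
Level of each lncRNA transcript listed above 0 in at least 1 library, in RPKM on a log axis. Circles are the oil library and squares the CCl4 library, with 1 value each. Open circles in the grey band are values listed at 0. Malat1 was above 590 RPKM in both libraries, and Rian and Airn were at 1.18 to 1.35 RPKM in the CCl4 library alone.

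Malat1 (NR_002847, chromosome 19, 5795690 to 5802672) stood at 616 RPKM in oil and 596 RPKM in CCl4. Its log2 ratio was -0.048 (-0.077 to -0.019), from at least 18403 and 19852 reads. It ranked 12 among the RefSeq lncRNAs in both libraries, of 911 listed in oil and 1005 in CCl4. Among the entries above it in oil were Rpph1, Rmrp, the small RNA Snord17 and a noncoding variant of Ahsg. The level of Malat1 was therefore nearly equal per library size, and 28.8% of annotated lncRNAs had a lower ratio. The sign depended on scaling, since the ratio was 0.12 when the libraries were matched on summed mRNA RPKM without the 10 most abundant mRNAs and -0.37 when matched on the median mRNA.

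FANTOM3 clones named as Malat1 synonyms gave 2 more views of this gene, with reads that may be shared with the RefSeq entry. Clone fantom3_2210401K01 stood at 920.3 RPKM in oil and 940.4 RPKM in CCl4, a log2 ratio of 0.031 (0.0077 to 0.055). Clone fantom3_9430072K23 stood at 572 RPKM and 501 RPKM, a ratio of -0.19 (-0.22 to -0.16). The clones differed in level and in ratio beyond counting error.

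Neat1 (NR_003513, chromosome 19, 5824708 to 5845480) lies 22035 bases from Malat1 and had the lowest ratio among the 7 genes listed in both libraries. It stood at 111 RPKM in oil and 64.6 RPKM in CCl4, which is 0.583 times the oil level. The log2 ratio was -0.78 (-0.83 to -0.72), from at least 6814 and 4426 reads, and did not reach the threshold of -1. Only 5.78% of annotated lncRNAs and 8.69% of RefSeq lncRNAs had a lower ratio. The clone fantom3_2310043N10 of the same gene gave 109 and 58.5 RPKM, a ratio of -0.90 (-0.94 to -0.86). The coordinates above are those of the whole gene, 20773 bases. Each level is that of a single entry, and forms of Neat1 that differ in length were not told apart. Neat1 was negative under every scaling tried, from -0.61 with the summed mRNAs to -1.10 with the median mRNA, and under the latter it was called lower. Malat1 stood at 5.55 times the level of Neat1 in oil and 9.22 times in CCl4, a comparison within each library that scaling does not touch.

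**Figure D2:**
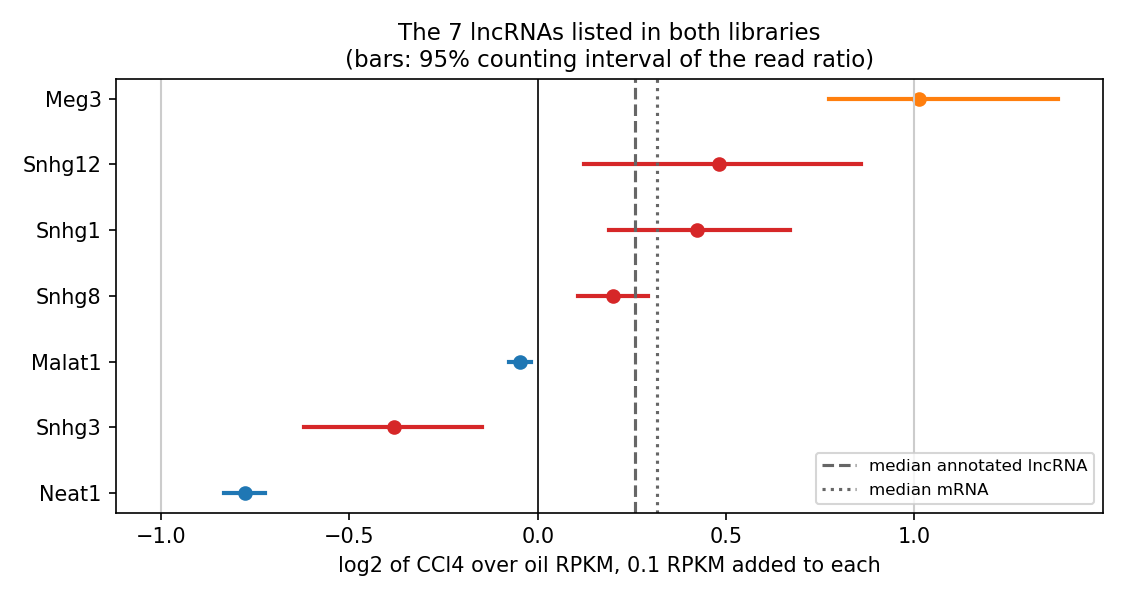
Log2 ratio of CCl4 to oil RPKM, with 0.1 RPKM added to each value, for the 7 lncRNAs listed in both libraries. Points are the ratios and bars the 95% counting intervals of the read ratio; the vertical lines give the medians of annotated lncRNAs (0.26) and mRNAs (0.32) and the thresholds of -1 and 1. Neat1 lies farthest below 0 and Meg3 just past 1.

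The mRNAs of proteins that share bodies with these RNAs did not have ratios like that of Neat1. Of 14 paraspeckle proteins, 13 had ratios above 0 and 1 below, with a median of 0.33 and 1 called higher, against 7 above, 7 below and none called with median mRNA scaling. Hnrnpa1, a splicing regulator, was the one called, with 17.6 RPKM in oil and 37.3 RPKM in CCl4. The scaffold partners Nono and Sfpq had ratios of 0.41 and 0.54, and Tardbp had the lowest at -0.34. All 12 speckle proteins had ratios between 0.065 and 0.45, with a median of 0.25 and 0 called, although 9 of them were below 0 with median mRNA scaling. In both lists the genes lay around the median of all mRNAs.

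Meg3 and Rian, which lie 32215 bases apart on chromosome 12, were both low. Meg3 (109540996 to 109571729), a growth-restraining lncRNA, had 3 RefSeq transcripts, and NR_003633 and NR_027651 were listed at 0 in both libraries. NR_027652 stood at 1.17 RPKM in oil and 2.47 RPKM in CCl4. Its log2 ratio was 1.01 (0.77 to 1.38), or 1.07 with nothing added, from at least 130 and 305 reads. It ranked 863 of the 911 RefSeq lncRNAs listed in oil and 694 of the 1005 listed in CCl4.

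The Meg3 call lay at the threshold. The ratio was 0.70 with median mRNA scaling, 0.67 with 1 RPKM added in place of 0.1, and 1.17 with summed mRNA scaling. The sign was the same throughout, whereas the call was lost under the first 2. The clones fantom3_2900016C05, fantom3_3110050O07 and fantom3_6330408G06, named as Meg3 synonyms, were listed at 0 in both libraries. Rian (NR_028261, 109603945 to 109661716), the host of a long array of snoRNAs, was listed at 0 in oil and at 1.35 RPKM in CCl4, and its clone fantom3_5530401N18 at 0 and 1.67 RPKM. A second Rian clone, fantom3_C130089L09, was at 0 in both. The protein-coding genes of the cluster, Dlk1, Rtl1, Dio3 and Begain, were all listed at 0 in both libraries, as was Mirg, the microRNA host of the same cluster.

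Airn (chromosome 17, 12741311 to 12859884) starts within Igf2r, on the opposite strand. Its transcripts NR_002853 and NR_027784 were listed at 0 in oil and at 1.22 and 1.18 RPKM in CCl4. NR_027772 and NR_027773 were at 0 in both, as was the clone fantom3_B930018I07, while the clone fantom3_2810051F02 was at 0 and 1.21 RPKM. Whether strand was used in counting is not given in the sources used here, so reads of Airn and Igf2r may not be separable. Igf2r, the receptor that clears Igf2, had 6.38 RPKM in oil and 12.6 RPKM in CCl4, a ratio of 0.97 that fell short of a call. Plasminogen, Plg (347 and 158 RPKM), was called lower with a ratio of -1.14. With summed mRNA scaling Plg was no longer called and Igf2r was called higher. Slc22a2, Slc22a3 and Mas1 were at 0 in both libraries.

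Kcnq1ot1 (NR_001461, chromosome 7, 143213111 to 143296547) lies antisense within Kcnq1 and was listed at 0 in both libraries. Of 10 protein-coding genes listed for its cluster, 8 were above 0 in both libraries, with 3 called higher, 0 called lower and a median ratio of 0.48. Among all mRNA transcripts listed in both libraries, 14.4% were called higher and 5.30% lower. Cdkn1c, an inhibitor of cyclin-dependent kinases, stood at 1.17 RPKM in oil and 6.17 RPKM in CCl4, a ratio of 2.31. Osbpl5 (1.11 RPKM in oil and 4.15 RPKM in CCl4, a ratio of 1.81) and Tspan32 (1.04 and 2.53 RPKM, 1.21) were also called higher. The oil values of Cdkn1c, Osbpl5 and Tspan32 all lay just above 1 RPKM, under which values were listed as 0. With median mRNA scaling 2 genes of the cluster were called higher and 1 lower. Kcnq1 itself, a potassium channel, had a ratio of 0.60, and Slc22a18 had the lowest at -0.89. The level of the lncRNA under 1 RPKM therefore gave no ratio to set beside these genes.

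Of the RefSeq lncRNAs listed in at least 1 library, 13.5% were listed in CCl4 alone, and of the 10 transcripts so listed here, 3 were. These were the single Rian and the pair of Airn transcripts, all between 1.18 and 1.35 RPKM, just above the listing minimum, so the oil value may lie little below. No fold is given for them. They entered the calls only in the alternative that took listed zeros as 0, where 4 transcripts were called higher.

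Markers of several cell types also differed between the libraries, in both directions. All 8 hepatocyte markers had ratios below 0, with 4 called lower (7 with median mRNA scaling), the direction of all 8 holding under both other scalings, and their summed level went from 16650 RPKM in oil to 9980 in CCl4. Of 8 stellate cell and myofibroblast markers, 7 were called higher and Pdgfrb was listed at 0 in oil and 16.8 RPKM in CCl4, with a summed level of 65.6 and 749 RPKM. The median ratio of the 7 was 3.61, and the lowest was 2.42. Kupffer cell markers summed to 446 and 807 RPKM with 3 of 5 called higher, and endothelial markers to 416 and 685 RPKM with 1 of 6 called. Clec4f, the most abundant Kupffer marker in oil, was at 283 RPKM in oil and 255 RPKM in CCl4. Marco was at 42.3 and 278 RPKM, and was the most abundant of them in CCl4. The other lists were smaller: of 5 lymphocyte markers 1 was called higher (Cd3e at 0 in both libraries and Nkg7 at a ratio of -0.66), of 4 bile duct markers 1 was called higher (Sox9 at 0 in both), and of 5 red cell markers 2 were called lower. With median mRNA scaling 1 Kupffer marker, 0 endothelial markers and 0 bile duct markers were called higher, while the 7 stellate calls held under both other scalings. The part of these cells in the values of Meg3, Rian, Airn and Neat1 was not tested. In bulk RNA, fewer cells of a type and less RNA per cell cannot be told apart.

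**Figure D3:**
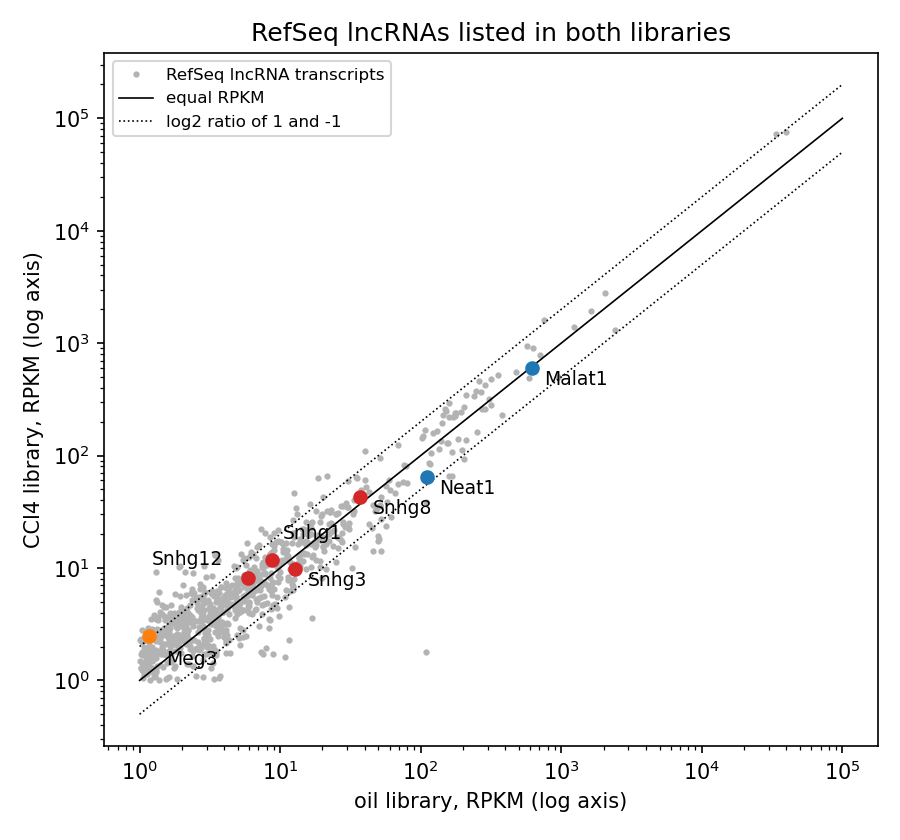
RPKM in the CCl4 library against RPKM in the oil library for the 863 RefSeq lncRNA transcripts listed in both, on log axes, with 1 grey point per transcript. The solid line marks equal values and the dotted lines log2 ratios of 1 and -1. The named lncRNAs are coloured, with Meg3 at the upper dotted line and Neat1 below the solid line.

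The 4 snoRNA hosts were listed in both libraries, and none was called. Snhg8 (NR_028574, chromosome 3, 123507552 to 123508336) was the most abundant per length, at 37.3 RPKM (35.5 to 39.1) in oil and 42.8 RPKM (41.0 to 44.7) in CCl4. Its log2 ratio of 0.20 (0.11 to 0.29) turned to -0.13 with median mRNA scaling. Snhg1 (NR_002896, chromosome 19, 8723487 to 8726326) stood at 8.77 RPKM (7.70 to 9.94) and 11.8 RPKM (10.6 to 13.1), a ratio of 0.42 (0.19 to 0.67). Both had higher values in CCl4 as deposited, and 63.1% of annotated lncRNAs had a ratio below that of Snhg1.

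Snhg12 and Snhg3 lie 40908 bases apart on chromosome 4 (132308678 to 132311024 and 132351933 to 132353686). Snhg12 (NR_029468) stood at 5.86 RPKM (4.78 to 7.11) in oil and 8.22 RPKM (6.998 to 9.59) in CCl4, a ratio of 0.48 (0.12 to 0.86). Snhg3 (NR_003270) stood at 12.7 RPKM (11.4 to 14.2) and 9.73 RPKM (8.62 to 10.95), a ratio of -0.38 (-0.62 to -0.15). The neighbouring hosts had ratios of opposite sign whose counting intervals did not overlap, and the signs were the same under both other scalings. Snhg3 was the only one of the 4 hosts below 0, and 13.9% of annotated lncRNAs had a lower ratio. The clone fantom3_2310005L22 of Snhg12 gave a ratio of 0.31 (0.092 to 0.55), and the clone fantom3_2010109N14 of Snhg8 gave 0.14 (-0.14 to 0.42) at 14.5 and 16.0 RPKM, a level under that of its RefSeq entry.

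In oil the order of level per length was Malat1, Neat1, Snhg8, Snhg3, Snhg1, Snhg12 and Meg3. In CCl4 Snhg1 moved above Snhg3, and the order was otherwise the same. The counting intervals of Snhg1 and Snhg3 did not overlap in oil but did overlap in CCl4, where those of Snhg3 and Snhg12 overlapped too. The remaining neighbours in the order had separate counting intervals in both libraries, with no replicate spread to set beside them.

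Of 13 other snoRNA hosts found in the table, 9 were listed in both libraries, with 7 above 0, 2 below, a median of 0.41, 2 called higher and 0 lower, against 5 above, 4 below and none called with median mRNA scaling. Snhg9 had 7.07 and 15.9 RPKM, a ratio of 1.16, and Snhg20 had 6.41 and 13.2 RPKM, a ratio of 1.03. Snhg4, Snhg7 and Snhg18 were listed in CCl4 alone, at 1.55, 2.06 and 3.78 RPKM, and Dancr had the lowest ratio at -0.35. The median of the 4 hosts named above was 0.31, or -0.012 with median mRNA scaling, beside 0.26 over all annotated lncRNAs as deposited.

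The snoRNAs themselves were entries of their own in 6 of 15 cases, and none was called. The box C/D snoRNA Snord22, carried by Snhg1, was at 1615 RPKM in oil and 1945 RPKM in CCl4 (0.27). Snora24, carried by Snhg8, had a ratio of 0.12. Of the Snhg12 snoRNAs, Snora44 had 0.20, Snora61 -0.074, Snora16a -0.51 and Snord99 -0.92, although Snhg12 itself had 0.48. The snoRNAs of 1 host thus had ratios of both signs, but no counting intervals are given for them. Snord99 stood at 7.39 RPKM in oil and 3.87 RPKM in CCl4. With median mRNA scaling all 6 snoRNAs were below 0 and Snord99 was called lower. Reads of such short RNAs depend on size selection, and which fragments were kept is not given in the sources used here.

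Proteins that act on these RNAs were measured as mRNAs. Of 8 snoRNP core proteins, 4 were above 0 and 4 below, with a median of 0.022 and none called, and 7 of 8 were below 0 with median mRNA scaling. The box C/D protein Nop58 had the lowest ratio at -0.54, and Gar1, of the box H/ACA particle, the highest at 0.49. All 8 nonsense-mediated decay factors, which degrade many spliced host transcripts, had ratios from 0.079 to 0.53, with a median of 0.31 and 0 called, and 4 of 8 were below 0 with median mRNA scaling. Neither list had a call as deposited or under the other scalings.

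**Figure D4:**
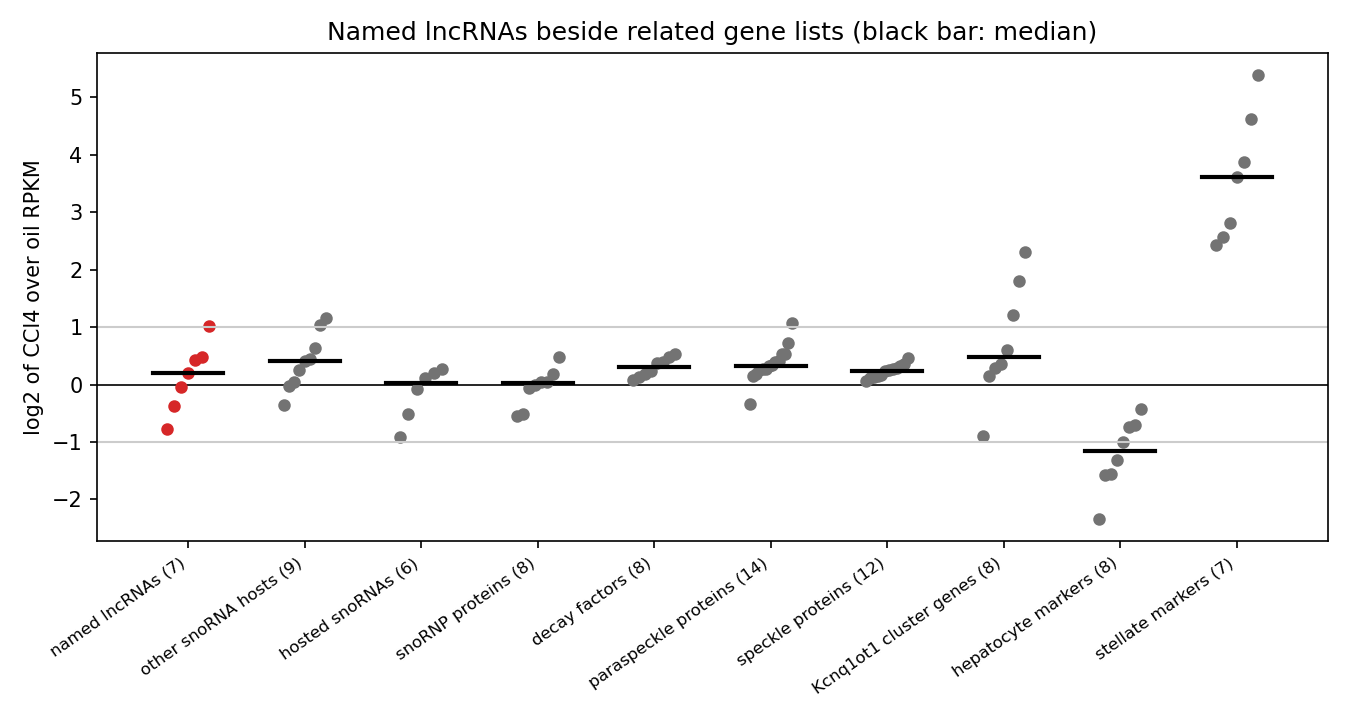
Log2 ratio of CCl4 to oil RPKM for the named lncRNAs and for related gene lists, with 1 point per gene listed in both libraries, their number in parentheses and black bars at the medians. Grey lines mark -1 and 1. The named lncRNAs run from -0.78 to 1.01 (median 0.20), and the stellate markers (median 3.61) lie above 2.

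New lncRNAs absent from the annotation lay next to some of these genes and were deposited with read counts, and their ratios are of RPKM with nothing added. Their counts, lengths and RPKM gave totals of 62438205 reads for oil and 70960848 reads for CCl4, which differ from those behind the annotated values, so their RPKM levels are not set beside annotated ones. TCONS_00042101 (chromosome 19, 5803138 to 5803564, plus strand) lies 466 bases beyond the start of Malat1 and had 7 reads in oil and 34 in CCl4, a log2 ratio of 2.10 (0.90 to 3.51). TCONS_00042102 (5846580 to 5848304, plus strand) lies 1100 bases beyond the higher end of Neat1, with 45 and 76 reads and a ratio of 0.57 (0.021 to 1.14). Its ratio and that of Neat1 had opposite signs. TCONS_00016860 (chromosome 12, 109662450 to 109664147, plus strand), 734 bases beyond Rian, had 14 reads in oil and 0 in CCl4, while Rian was listed in CCl4 alone. Against a floor of 3 reads in the CCl4 library its level was 5.30-fold lower, without the counting error of the 14 oil reads. With the counting error of both libraries, the 95% interval of the log2 ratio of TCONS_00016860 reached up to -1.91, which is the bound to use.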

How the data were processed

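RNA-seq of 2 hepatocyte libraries was analysed, 1 from oil-injected and 1 from CCl4-injected mice. The submitters' processing notes name CASAVA 1.4, TopHat2 and mm10; the counting program and its use of strand are not given in the sources used here. The deposited annotated lncRNA and mRNA tables hold RPKM values made by the authors, with values under 1 listed as 0, beside columns of the authors' comparison (a log2 change with its p-value and q-value), which were not used. The deposited read counts of 1443 new lncRNAs are whole numbers without normalization.

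Symbols came from a RefSeq gene table of GRCm38.p6 (3563 lncRNA and 27049 mRNA identifiers matched). Calls need a log2 ratio of 1 in either direction with 0.1 RPKM added, without a test. Library totals were those giving whole reads for short RefSeq genes (199 of 207 in oil, 212 of 219 in CCl4, tolerance 0.02 reads). The shortest length giving whole reads then gave read numbers that are lower bounds, so the intervals (exact binomial for ratios, exact Poisson for levels) are, if anything, too wide. Alternatives were other pseudocounts, scalings, thresholds and filters, and listed zeros taken as 0.

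The genes named are the 10 lncRNAs, related lists and cell markers, each list gene being represented by whichever transcript had the highest mean. Members and lists were chosen with earlier results of these data known. Scripts were tested on simulated data. Computation used pandas 2.3.3, scipy 1.17.1 and numpy 2.4.6 under Python 3.11.15, with plots from matplotlib 3.10.9. Some related or neighbouring genes are not reported here.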

Additional observations from a re-analysis of the deposited data

How the results depend on the processing

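Each condition had 1 library, so no library could be left out. No paired analysis was possible because each group holds a single library. The 1 call among the named lncRNAs, Meg3, became 0 with 1 RPKM added, with median mRNA scaling, at a log2 threshold of 2 and at a mean of at least 5 RPKM, and became 4 with listed zeros taken as 0. The count called lower went from 0 to 1 (Neat1) with median mRNA scaling. The median ratio of 0.20 was -0.13 with median mRNA scaling, 0.36 with summed mRNA scaling, 0.076 at a mean of at least 5 RPKM and 0.42 with zeros taken as 0. Over all annotated lncRNAs, 714 were called higher, against 400 with 1 RPKM added, 321 with median mRNA scaling, 1064 with summed mRNA scaling, 47 at a threshold of 2, 289 at a mean of at least 5 RPKM, 2379 with zeros taken as 0 and 96 among RefSeq lncRNAs alone. The 264 called lower became 547 with median and 197 with summed mRNA scaling, 39 at a threshold of 2, 153 at a mean of at least 5 RPKM, 738 with zeros taken as 0 and 45 among RefSeq lncRNAs. The RefSeq restriction was chosen after seeing the data. Of 28 ratios of single lncRNAs under other pseudocounts and scalings, 18 stayed within their counting interval and 10 moved beyond it. This split also reflects the width of each interval, which is narrower with more reads. Snhg12 went from 0.48 to 0.16 with median mRNA scaling and stayed within its interval. Malat1 went from -0.048 to 0.12 with summed mRNA scaling and moved beyond its own. Levels just above 1 RPKM limit what can be said of Meg3, Rian and Airn.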

Other observations

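Other well-known RNAs showed where the named lncRNAs sit. Of 13 broadly known lncRNAs found in the table, 9 were listed in both libraries, all with ratios above 0 as deposited and 5 of 9 with median mRNA scaling, with a median of 0.58. With median mRNA scaling their median was 0.25 and none was called, and with summed mRNA scaling 3 were called higher. Rmrp, the RNA of RNase MRP, was called higher as deposited at 33486 RPKM in oil and 72286 RPKM in CCl4, while Rpph1, the RNA of RNase P, had a ratio of 0.93. Tug1, Oip5os1 and Norad had ratios of 0.67, 0.86 and 0.27. Fendrr was listed at 0 in oil and 2.37 RPKM in CCl4. Of 8 other imprinted or dosage lncRNAs, Peg13 was called higher at the threshold, at 2.72 and 5.54 RPKM, with a ratio of 0.68 and no call under median mRNA scaling, and 7 were at 0 in both libraries, among them Mirg, Nctc1 and Igf2os.

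Genes nearest to the named lncRNAs on the GRCm38 map were listed after the data had been seen. Frmd8, 5494 bases from Neat1, stood at 6.44 RPKM in oil and 13.3 RPKM in CCl4 (1.03), in contrast to Neat1. Ltbp3, 37154 bases from Malat1, had a ratio of 2.15, from 1.10 RPKM in oil, just above the listing minimum, and 5.19 RPKM in CCl4. Slc3a2, an amino acid transporter subunit 118 bases from Snhg1, had 0.53, and Wdr74, 9469 bases away, had -0.32, beside 0.42 for Snhg1. Phactr4, 2236 bases from Snhg3, had a ratio of 0.31, and Rcc1, 6183 bases away, stood at 2.67 and 5.94 RPKM (1.13), beside -0.38 for Snhg3. Trnau1ap, 739 bases from Snhg12, had 0.27. All these ratios are as deposited, where the median ratio of all mRNAs was 0.32.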
